A study of Mus musculus with 6 samples.

Results

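The genes described here encode the SPARC, testican and spondin proteins of the extracellular matrix. They are *Sparc*, *Sparcl1*, *Spock1*, *Spock2*, *Spock3*, *Smoc1*, *Smoc2*, *Fstl1*, *Spon1* and *Spon2*, 10 of the 23159 genes in the count table. The members were chosen by name from gene families, at a time when the fold changes of these genes between the 2 sorted cell populations were already known, and *Spon1* had been singled out for its own change. The values of this comparison are therefore given for the 10 genes as a description: no p-value is printed for a member, and whether a member was among the called genes supports no statement about it.

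The proteins are matricellular, which means that they are secreted into the matrix and act on cells and growth factors there rather than forming fibrils themselves. SPARC (osteonectin), SPARC-like 1 (hevin), the testicans, the SMOC proteins and follistatin-like 1 share a follistatin-like module. SPARC, SPARC-like 1, the testicans and the SMOC proteins also have a calcium-binding domain, and the testicans carry glycosaminoglycan chains. The spondins (F-spondin and mindin) are built from a spondin domain and thrombospondin type 1 repeats, and belong to the list through their matricellular role. In cartilage and bone, SPARC is known as an abundant collagen-binding protein of mineralized tissue, and SMOC and follistatin-like proteins are known to modulate signaling by bone morphogenetic proteins.

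RNA was sequenced from chondrocytes of the femoral and tibial growth plates of mice at postnatal day 49 (P49), in 3 experiments that each pooled littermates and gave 1 LRC library and 1 non-LRC library. Label-retaining chondrocytes (LRCs) were H2B-GFP(high)tdTomato+ and non-LRCs were H2B-GFP(mid-low)tdTomato+ cells, with about 10000 and 50000 sorted cells per library. All mice were homozygous for Col2a1-tTA (labelled at *Peli2*), TRE-H2B-GFP (labelled at *Col1a1*), Col2a1-creER and R26R-tdTomato. Both populations had the same doxycycline chase from P21 to P49, which stops new H2B-GFP, and tamoxifen on P46 and P47, which switches on tdTomato. The *Col2a1* promoter drives both tTA and creER, so the sort could hold any CD45-negative cell in which that promoter was active. Epiphyses with the growth plate attached were digested, by a protocol that the study designed to take growth plate rather than articular chondrocytes. From counts of tdTomato+ cells before and after digestion, the study reported that almost all released tdTomato+ cells came from the growth plate. The comparison asks how slow-cycling cells, which keep the label, differ from cells that have diluted it.

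Total counts per library ranged from 18943789 to 129559872. The LRC library of experiment 2 stood apart as the shallowest, with 1731 of the 13728 tested genes at 0 counts against 4 to 365 in the other 5 libraries. One count in it was worth 0.0478 CPM (counts per 1000000, with library sizes scaled by TMM). Fitted changes of the members are therefore also given without experiment 2 where their call or direction changed. Statements on overlap use all 6 libraries and were not repeated without experiment 2. All 10 markers of growth plate chondrocytes passed the filter, *Col2a1* had the most counts of any gene in all 6 libraries, and the 10 summed to 81040 to 223600 CPM in LRCs, lowest in experiment 2, against 133400 to 230400 CPM in non-LRCs. None of the 10 was called, and 9 were fitted lower in LRCs. Of the resting zone markers, *Pthlh* and *Wif1* were called higher in LRCs, and the 5 summed to 1452 to 2006 CPM in LRCs against 711 to 1131 CPM in non-LRCs. Without *Wif1* the sums overlapped, at 577 to 688 CPM and 493 to 786 CPM, and *Ucma* was the largest part of them. *Ucma*, the 1 marker of that list fitted lower, was at 314 to 358 CPM in LRCs and 393 to 681 CPM in non-LRCs, with no overlap, and was not called. *Pthlh* was at 97.9 to 219.1 CPM in LRCs against 31.2 to 74.7 CPM in non-LRCs. *Sfrp5*, not called, was at 111.0 to 172.0 CPM against 29.9 to 99.0 CPM, and neither of these overlapped. Called here means an adjusted p below 0.05 in edgeR's quasi-likelihood test with the experiment as a block, and at least a 2-fold difference. Of the genes tested, 1.21% were called, 0.874% higher and 0.335% lower in LRCs, and the median fitted log2 fold change was −0.10.

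All 10 members passed the filter on low counts, and the lowest count of any member in any library was 22, for *Sparcl1* in the non-LRC library of experiment 2. Of the 10, 8 were higher in LRCs in all 3 experiments, *Spon2* was lower in all 3 and *Spock3* was mixed, where 20.4% of all genes tested were higher and 26.1% lower in all 3. *Spock1*, *Smoc2* and *Spon1* were among the genes called higher, and *Spon2* among those called lower. Since the members were proposed with this contrast known, nothing is read from 4 of 10 beside the 1.21% of all genes. The calls depended on the block and the tool: without the experiment as a block 0 members were called, and with it 6 were called in DESeq2 and 7 in limma-voom, where *Sparcl1*, *Spock2* and *Smoc1* were added in both. The 3 LRC libraries all lay above the 3 non-LRC libraries for 7 members, as they did for 8.41% of all genes tested, and below them for 0 members, against 10.3% of all genes tested. In bulk samples such as these, fewer cells expressing a gene and less RNA per expressing cell cannot be told apart.

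**Figure D1:**
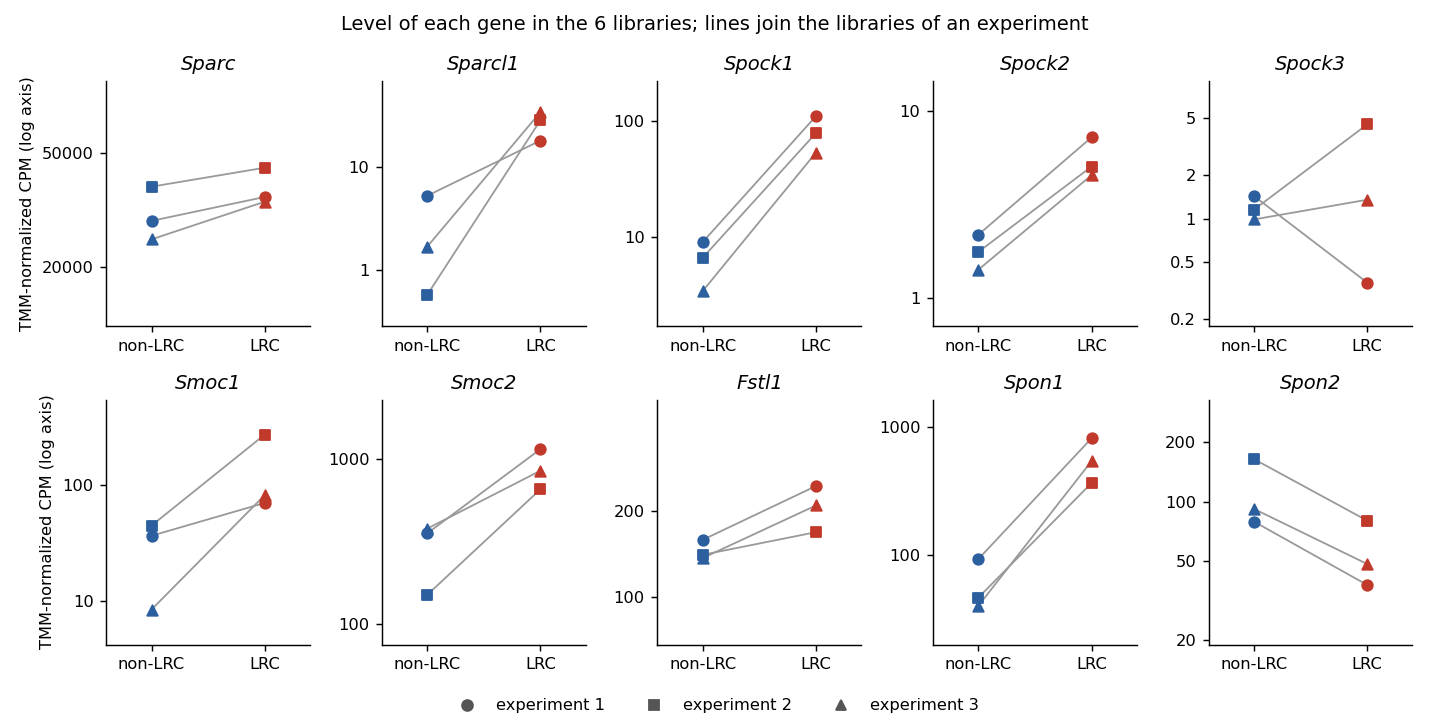
TMM-normalized CPM of each gene (log axis, with its own range per panel) in the non-LRC and LRC libraries, with a symbol for each experiment and a line joining its 2 libraries. *Spock1* and *Spon1* lay higher in every LRC library than in any non-LRC library, *Spon2* fell along every line, and the lines of *Spock3* crossed.

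The testicans are proteoglycans of the pericellular matrix, and their promoters are shown because the 3 paralogs differed in level and in change. Each sequence is from RefSeq on GRCm38.p6, runs from 250 bases before to 50 bases after a start listed there, and is written in the direction of the gene. The gene spans given below are from GENCODE, whose starts differ from these for *Spock2* and *Spock3*. Most of the *Spock3* window lies inside the GENCODE span of that gene, so the 3 windows are not placed alike. They lie at chr13:57908283-57908582 on the minus strand for *Spock1*, chr10:60106007-60106306 on the plus strand for *Spock2* and chr8:62950982-62951281 on the plus strand for the first of 2 listed starts of *Spock3*. Capitals mark the letters of a GC box, GGGCGG on either strand.
Spock1: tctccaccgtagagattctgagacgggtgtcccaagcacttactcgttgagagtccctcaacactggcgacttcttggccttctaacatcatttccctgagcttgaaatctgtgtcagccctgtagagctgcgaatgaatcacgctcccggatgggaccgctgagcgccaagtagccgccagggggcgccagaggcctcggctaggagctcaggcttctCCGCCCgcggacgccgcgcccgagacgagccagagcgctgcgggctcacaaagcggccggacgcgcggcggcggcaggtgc
Spock2: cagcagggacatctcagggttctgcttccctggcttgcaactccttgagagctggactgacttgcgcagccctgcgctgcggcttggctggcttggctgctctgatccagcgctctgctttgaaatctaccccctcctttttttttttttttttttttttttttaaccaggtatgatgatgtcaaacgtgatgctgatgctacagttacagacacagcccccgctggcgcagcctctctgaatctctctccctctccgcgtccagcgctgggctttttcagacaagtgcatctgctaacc
Spock3: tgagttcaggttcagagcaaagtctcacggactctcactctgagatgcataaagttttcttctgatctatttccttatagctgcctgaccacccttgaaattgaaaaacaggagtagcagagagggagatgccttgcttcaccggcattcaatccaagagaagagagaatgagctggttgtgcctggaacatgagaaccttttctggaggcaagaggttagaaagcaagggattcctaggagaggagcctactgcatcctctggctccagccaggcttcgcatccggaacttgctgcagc
The *Spock1* window held 29 CpG dinucleotides and 64.0% G and C, the *Spock2* window 10 and 52.3%, and this *Spock3* window 4 and 49.0%. The median of the 32544 promoter windows in the RefSeq table was 7 CpG dinucleotides. A GC box was present once in the *Spock1* window, where it reads CCGCCC, and not in the other two. Over all windows 35.9% held a GC box. None of the 3 windows held CCAAT or TATAAA on either strand, which 37.4% and 13.6% of all windows did. These letter matches describe the windows and say nothing of which factors act there. The table held a window for 5 of the 10 members.

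*Spock1* encodes testican-1 (chr13:57421195-57908332, minus strand, GRCm38). It measured 109.6, 78.4 and 53.3 CPM in LRCs, listed here and throughout in the order of experiments 1, 2 and 3, against 9.11, 6.68 and 3.46 CPM in non-LRCs. The groups were far from overlapping, and both populations were highest in experiment 1 and lowest in experiment 3. The means were 80.5 ± 28.2 CPM in LRCs against 6.42 ± 2.83 CPM (mean ± s.d., *n*=3) in non-LRCs, and the log2 difference within experiments was 3.58, 3.55 and 3.93. The fitted log2 fold change was 3.69 ± 0.20 (SE), a 12.9-fold difference, and *Spock1* was called with any of the 3 experiments left out, at 3.59 to 3.76.

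*Spock2* encodes testican-2 (chr10:60106219-60135198, plus strand). It was scarce, at 7.19, 5.02 and 4.51 CPM in LRCs against 2.17, 1.75 and 1.41 CPM in non-LRCs. Every LRC library was again above every non-LRC library, and the differences within experiments were close to each other, at 1.72, 1.5 and 1.66 on the log2 scale. Over the 3 experiments the fit gave 1.64 ± 0.51 (SE) from 67 to 840 counts per library. *Spock2* was not called with all 3 experiments, and was called without experiment 2, at 1.71.

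*Spock3* encodes testican-3 (chr8:62951009-63357103, plus strand). It measured 0.36, 4.49 and 1.35 CPM in LRCs against 1.43, 1.15 and 0.99 CPM in non-LRCs, from 42 to 148 counts per library. The LRC libraries lay on both sides of the non-LRC libraries, with experiment 1 lower by 1.90 and experiment 2 higher by 1.93 on the log2 scale. The fitted log2 fold change of 0.19 ± 1.11 (SE) turned to −0.77 without experiment 2, so these data set no direction for *Spock3*.

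The share of each testican within a library does not depend on how libraries are scaled. Per kilobase of exon, *Spock1* made up 90.6%, 85.03% and 86.0% of the testican counts in LRCs and 63.4%, 61.1% and 49.8% in non-LRCs. The populations did not overlap, and the mean share was 29.1 percentage points higher in LRCs (s.d. of the 3 differences 6.37). *Spock2* and *Spock3* took larger shares in non-LRCs, with means of 25.9% and 16.0% against 9.41% and 3.39% in LRCs. The share of *Spock2* was thus lower in LRCs although its own CPM was higher there. The lead of *Spock1* among the testicans was present in both populations.

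**Figure D2:**
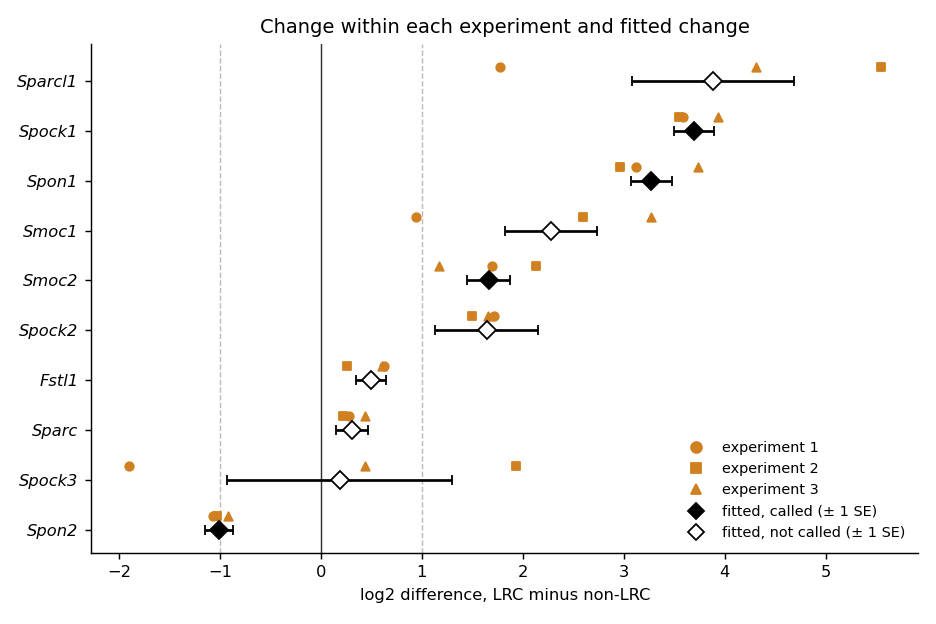
Log2 difference between LRCs and non-LRCs for each gene, within each experiment (orange symbols) and as fitted over the 3 experiments (diamonds with ± 1 SE, filled where the gene was called). Dashed lines mark a 2-fold difference. The differences of *Spon2*, *Sparc*, *Spock2*, *Fstl1* and *Spock1* spanned 0.14 to 0.38 log2 units over the experiments, whereas those of *Spock3* and *Sparcl1* spanned 3.84 and 3.78.

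The spondins moved in opposite directions. *Spon1* encodes F-spondin (chr7:113765998-114043370, plus strand), an adhesion protein first known from the developing nervous system. It measured 811.3, 364.1 and 538.7 CPM in LRCs against 93.2, 46.7 and 40.3 CPM in non-LRCs. The lowest LRC library was well above the highest non-LRC library. The means were 571 ± 225 CPM and 60.1 ± 28.8 CPM (mean ± s.d., *n*=3), and the log2 difference was 3.12, 2.96 and 3.74 within experiments 1, 2 and 3. The fit gave 3.27 ± 0.21 (SE), a 9.67-fold difference, with a range of 3.06 to 3.43 when an experiment was left out, and it was called each time.

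*Spon2* encodes mindin (chr5:33198184-33218455, minus strand), which is known for binding integrins and microbial surfaces. It measured 38.0, 80.3 and 48.5 CPM in LRCs against 79.4, 164.1 and 92.0 CPM in non-LRCs. The groups overlapped, since the LRC library of experiment 2 lay just above the non-LRC library of experiment 1, and both populations were highest in experiment 2. Within experiments the difference was the steadiest of the 10 genes, at −1.06, −1.03 and −0.92 on the log2 scale (s.d. 0.073). The fit gave −1.01 ± 0.14 (SE), which is 2.01-fold lower and only just past the 2-fold limit. Leaving out any one of the experiments ended the call of *Spon2*, with values between −1.03 and −0.98.

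As a result the balance of the 2 spondins turned over between the populations. Per kilobase of exon, *Spon1* made up 85.9%, 56.3% and 75.9% of the spondin counts in LRCs and 25.0%, 7.48% and 11.1% in non-LRCs. *Spon1* was the larger in every LRC library and *Spon2* the larger in every non-LRC library. The mean share of *Spon1* was 58.2 percentage points higher in LRCs (s.d. of the 3 differences 8.35), and 54.8 to 62.9 points higher with an experiment left out.

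**Figure D3:**
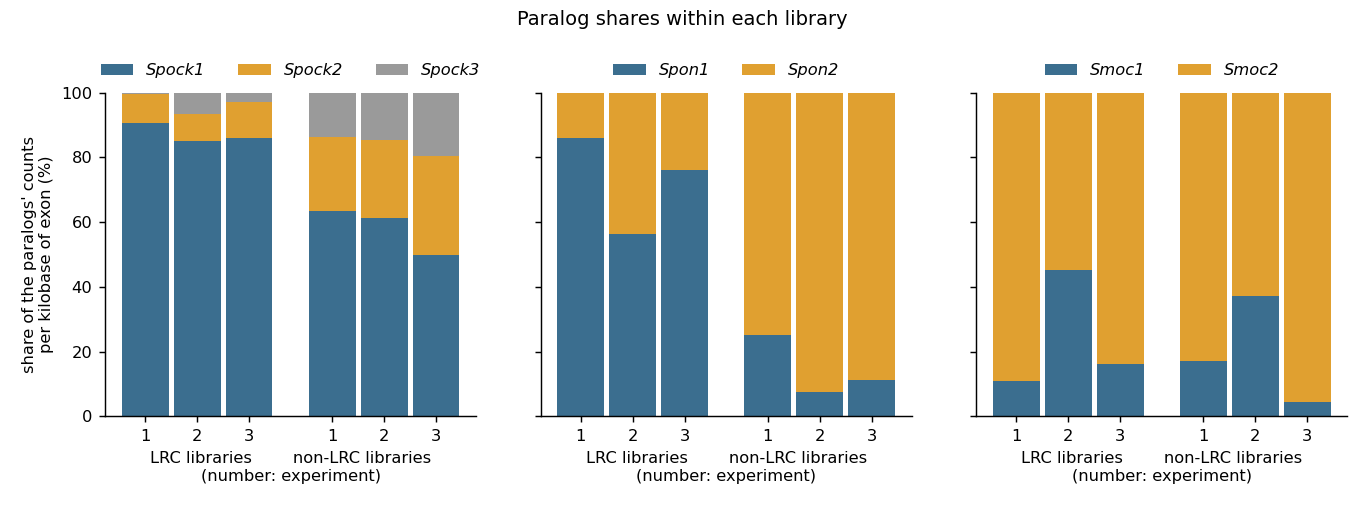
Share of each paralog in the testican (*Spock*), spondin (*Spon*) and SMOC counts per kilobase of exon, in percent, with 1 stacked bar per library. *Spock1* held 85.03% to 90.6% of the testican bars in LRCs, the larger spondin share passed from *Spon2* in non-LRCs to *Spon1* in LRCs, and the SMOC shares overlapped between populations.

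The SMOC genes were both higher in LRCs. *Smoc2* (chr17:14279506-14404790, plus strand), whose product is a matrix protein that modulates growth factor signaling, measured 1145, 653.7 and 847.1 CPM in LRCs against 353.0, 149.6 and 377.4 CPM in non-LRCs. The groups did not overlap, and the library of experiment 2 was the lowest in both. The means were 882 ± 248 CPM and 293 ± 125 CPM (mean ± s.d., *n*=3), and the fitted log2 fold change was 1.66 ± 0.21 (SE), a 3.17-fold difference. *Smoc2* was not called without experiment 1, although its value hardly moved, at 1.64.

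*Smoc1* (chr12:81026808-81186414, plus strand), which encodes a bone morphogenetic protein antagonist, measured 70.0, 271.2 and 81.9 CPM in LRCs against 36.5, 44.7 and 8.47 CPM in non-LRCs. All LRC libraries were above all non-LRC libraries, but by unequal amounts, with a log2 difference of 0.94, 2.60 and 3.27 in experiments 1, 2 and 3. The fitted log2 fold change of 2.28 ± 0.46 (SE) was larger than that of *Smoc2*, while its error was also larger and it was not called. Without experiment 1 it was 2.93 and called, and without experiment 3 it was 1.79 and called. The *Smoc1* share of the SMOC counts per kilobase was 24.1% ± 18.5 in LRCs and 19.5% ± 16.6 in non-LRCs (mean ± s.d., *n*=3), a difference smaller than its spread. In both populations experiment 2 had the largest *Smoc1* share, at 45.2% and 37.3%.

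*Sparc* itself (chr11:55394500-55423183, minus strand) was the most abundant member by far. It ranked next to *Col2a1* by counts in each of the 6 libraries and took 2.62% to 4.89% of all counts. It measured 35080, 44320 and 33780 CPM in LRCs against 28970, 38080 and 24990 CPM in non-LRCs. The groups overlapped, while within each experiment the LRC library was the higher one, by 0.28, 0.22 and 0.43 on the log2 scale. The fit gave 0.31 ± 0.16 (SE), a 1.24-fold difference, and *Sparc* was not called.

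*Sparcl1* encodes hevin (chr5:104079111-104113733, minus strand), the closest relative of SPARC. It measured 18.1, 28.4 and 34.1 CPM in LRCs against 5.27, 0.58 and 1.69 CPM in non-LRCs. The groups did not overlap, yet the difference within an experiment varied between 1.77, 5.55 and 4.31 on the log2 scale, and the largest rests on 22 counts in a non-LRC library. The fitted log2 fold change of 3.88 ± 0.80 (SE) was the largest of the 10 genes and was not called. It was called when any one of the experiments was left out, at 4.93, 2.98 and 3.62 without experiments 1, 2 and 3. Even in LRCs, *Sparcl1* was 0.093% of the *Sparc* and *Sparcl1* counts per kilobase.

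*Fstl1* (chr16:37776873-37836514, plus strand) encodes a secreted glycoprotein that binds bone morphogenetic proteins. It measured 243.6, 168.3 and 208.5 CPM in LRCs against 158.3, 140.4 and 136.8 CPM in non-LRCs. Every LRC library was above every non-LRC library by a small margin, and the non-LRC libraries were the closest together of any member (coefficient of variation 7.95%). Its fitted log2 fold change was 0.50 ± 0.15 (SE), a 1.41-fold difference, and *Fstl1* was not called.

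Levels of different genes were compared per kilobase of exon. In LRCs the order of mean CPM per kilobase was *Sparc* (9960), *Smoc2* (127), *Spon1* (55.0), *Fstl1* (42.1), *Smoc1* (40.3), *Spon2* (18.9), *Spock1* (9.62), *Sparcl1* (9.14), *Spock2* (1.01) and *Spock3* (0.34). *Sparc* and *Smoc2* each stood clear of the next gene in all libraries, whereas each neighboring pair from *Spon1* to *Sparcl1* overlapped in range. In non-LRCs *Spon2* (37.9) followed *Sparc* (8098) and *Smoc2* (42.2), whereas *Spon1* (5.79) stood behind *Fstl1* (29.5) and *Smoc1* (8.55). *Sparcl1* (0.85) and *Spock1* (0.77) overlapped and were followed, by the mean, by *Spock2* (0.32) and *Spock3* (0.20). The range of *Sparcl1* in non-LRCs, 0.196 to 1.79, also overlapped those of *Spock2* and *Spock3*, so it could not be ordered against them. *Smoc2*, *Spon2* and *Fstl1* could not be ordered in non-LRCs, since their ranges overlapped, and nor could *Smoc1* and *Spon1*. Without *Sparc*, the other members together took 0.182% to 0.220% of all counts in LRCs and 0.0568% to 0.0694% in non-LRCs.

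Genes that share domains with the members, without belonging to their families, were examined as a list of 29, of which 22 were tested. This list and those below were chosen with earlier results of these data known, so the adjusted p-values of their genes are descriptive. Of the 22, 1 was called higher and 2 lower in LRCs, where 1.21% of all genes tested were called. The list's median log2 fold change was 0.46 beside −0.10 over all genes tested. *Htra1*, a secreted protease with a follistatin-like module, measured 1032, 1419 and 729 CPM in LRCs against 504, 632 and 370 CPM in non-LRCs, and these groups did not overlap. It was higher in LRCs by 1.06 ± 0.14 (log2, SE; edgeR adjusted p = 0.0372). The R-spondins, which carry a thrombospondin repeat and amplify Wnt signals, included both genes called lower. Of the others, *Rspo1* was scarce, was fitted higher by 1.19 ± 1.02 (log2, SE) and was not called. *Rspo2* was not among the tested genes. *Rspo3* measured 3.19, 4.97 and 8.17 CPM in LRCs against 16.9, 20.1 and 26.4 CPM in non-LRCs, a log2 fold change of −2.04 ± 0.29 (SE; edgeR adjusted p = 0.044). *Rspo4* measured 4.03, 4.92 and 8.19 CPM against 32.0, 33.9 and 40.7 CPM, a log2 fold change of −2.69 ± 0.26 (SE; edgeR adjusted p = 0.0176). The study had already reported *Rspo3* and *Rspo4* as enriched in non-LRCs, from these same libraries. In both, the highest LRC library was below the lowest non-LRC library. *Htra1*, *Rspo3* and *Rspo4* were not called without experiment 1, and *Rspo3* was not called without experiment 3 either.

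Among 16 other matricellular genes (CCN proteins, tenascins, thrombospondins, periostin and osteopontin), all tested, 1 was called higher and 0 lower, with a median log2 fold change of 0.24. *Thbs4*, which encodes thrombospondin-4, measured 66.1, 45.5 and 50.6 CPM in LRCs against 10.1, 7.36 and 5.71 CPM in non-LRCs. The groups were well separated, and the log2 fold change was 2.83 ± 0.22 (SE; edgeR adjusted p = 0.0151), also called with any experiment left out. The other 15 genes were not called.

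Of 36 genes for binding partners and targets of the members (collagens, integrins, growth factors, proteases and receptors), 33 were tested. Of these, 3 were called higher and 0 lower, with a median log2 fold change of 0.39. *Col1a1*, a chain of type I collagen, which SPARC binds, measured 154.0, 53.0 and 113.1 CPM in LRCs against 33.8, 8.20 and 23.3 CPM in non-LRCs. Its log2 fold change was 2.38 ± 0.18 (SE; edgeR adjusted p = 0.0151). The H2B-GFP transgene is labelled as lying at *Col1a1* and LRCs were sorted for its product, and the part of this in the *Col1a1* counts was not tested. *Col4a2*, a basement membrane collagen chain, measured 152.1, 38.4 and 76.2 CPM against 61.9, 17.4 and 25.3 CPM, with overlapping groups and a log2 fold change of 1.35 ± 0.17 (SE; edgeR adjusted p = 0.0354). *Bmp2*, a bone morphogenetic protein, stood at 124.2, 114.5 and 114.2 CPM against 44.1, 53.9 and 38.3 CPM, well apart, with a log2 fold change of 1.39 ± 0.17 (SE; edgeR adjusted p = 0.033). Without experiment 1, *Col4a2* and *Bmp2* were not called.

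**Figure D4:**
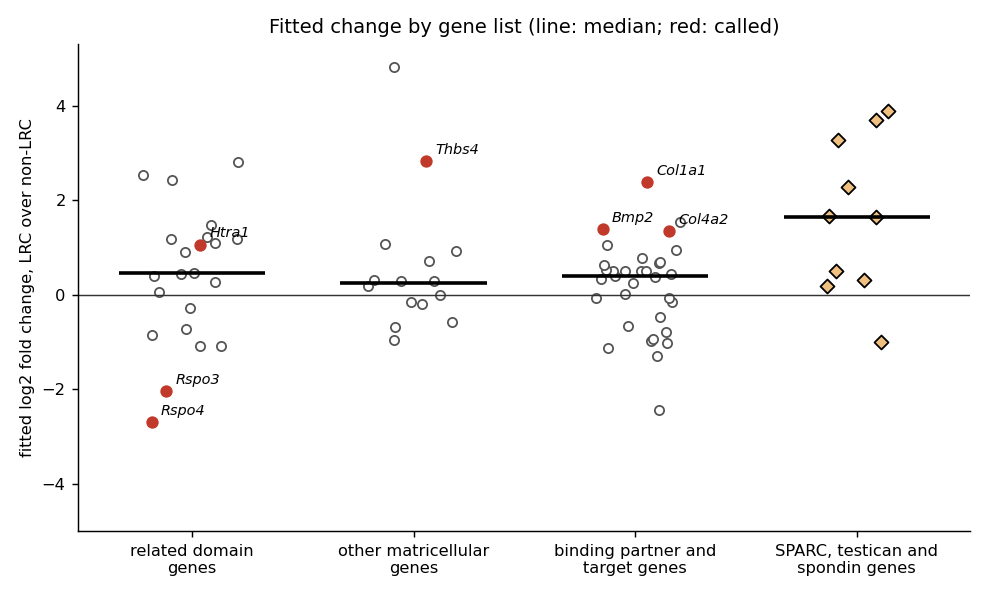
Fitted log2 fold change of every tested gene in the 3 lists and of the 10 members, with the median of each as a line and the called genes of the lists in red. 1 gene of the matricellular list, *Postn*, lies off the axis because it had 0 counts in all LRC libraries, so that its fitted value depends on the prior count. The list medians were 0.46, 0.24 and 0.39, and the members' median was 1.65. Since the members were proposed with this contrast known, nothing is read from their median beside those of the lists.

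Some markers used for other cells moved with these results. The 10 markers of superficial articular and synovial cells summed to 1105, 196.5 and 968 CPM in the LRC libraries and 55.7 to 85.8 CPM in the non-LRC libraries, but *Prg4* alone made up 1017, 109.5 and 869 CPM of the LRC sums. Without *Prg4* the list summed to 87.1 to 99.0 CPM in LRCs against 49.3 to 68.1 CPM in non-LRCs. *Prg4* is known foremost from the superficial layer of articular cartilage, and its transcript is not exclusive to that layer. *Prg4* was the 1 marker called of the 8 tested, higher in LRCs with a log2 fold change of 5.75 ± 0.49 (SE), and 6 of the 8 were fitted higher and 2 lower. *Pi16* was at 0 in 5 of 6 libraries and *Thy1* stayed at or below 0.37 CPM. Their part in the results for the members was not tested. Most prehypertrophic and hypertrophic markers moved the other way, with 7 of 8 fitted lower, 1 fitted higher and 3 called lower (*Pth1r*, *Panx3* and *Mef2c*). The 8 summed to 328 to 637 CPM in LRCs against 800 to 2115 CPM in non-LRCs, beside the lower *Spon2* of LRCs. Their part was not tested either. The 10 osteoblast markers summed to 1523 to 3398 CPM in LRCs and 1811 to 2503 CPM in non-LRCs, most of it *Col1a2*, without which the sums were 250.4 to 550.7 CPM and 447.8 to 942.6 CPM. *Col1a1* was the 1 osteoblast marker called, and 7 of the 10, *Bglap*, *Sp7* and *Alpl* among them, were fitted lower with a list median of −0.72. Markers of endothelial cells and pericytes other than *Cspg4* summed to 1.42 to 5.45 CPM in LRCs against 1.75 to 2.41 CPM in non-LRCs, with *Cdh5*, *Kdr* and *Emcn* at 0 in all libraries. Skeletal muscle markers summed to 12.6 to 23.4 CPM and 23.6 to 43.0 CPM, and leukocyte and erythroid markers to 6.71 to 10.8 CPM and 7.08 to 12.3 CPM.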

How the data were processed

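RNA-seq of 3 LRC and 3 non-LRC libraries was analysed. The authors counted reads per gene with HTSeq after alignment with TopHat2 2.0.13 and Bowtie2 2.2.1 to mm10 (GRCm38), per the submitters' processing notes and the study's methods. The annotation and the strand setting are not given in the sources used here. No member shared exon bases with another gene in GENCODE vM21. The deposited raw counts, not normalized, were the input of all tests. The deposited normalized signal equals those counts divided by 1 size factor per library (0.402 to 2.27) and served only for that check. The deposited rlog table was not used.

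Tests were run with edgeR 4.0.16 in R 4.3.3 (filterByExpr, minimum count 10 and total 15, TMM, experiment as a block, quasi-likelihood test, Benjamini-Hochberg over 13728 genes, prior count 0.125). Log2 differences within an experiment used log2 CPM with a prior count of 2. Same-numbered libraries came from the same pooled littermates, and their deviations from the group means correlated at r = 0.197, 0.288 and 0.336 across genes, so the block was kept. The study describes the experiments as independent. The standard errors come from a fit whose dispersions are moderated across genes, so they are not a gene's own spread over the experiments. *Spock2* and *Sparc*, for example, had the same s.d. of their differences within experiments (0.112), with standard errors of 0.508 and 0.157. Standard errors were derived from the F statistic. Levels per kilobase used merged exons of GENCODE vM21. The fits were tested on simulated data.

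The members, the gene lists and the tests were chosen with earlier results of these data known. Named genes were all members, the called genes of each list (at most 6 by size of change) and up to 3 defining markers of a cell type. *Postn*, *Col2a1*, *Cspg4*, *Ucma*, *Col1a2* and the sums without 1 gene were singled out after their values were seen. Alternatives were no block, DESeq2 1.42.0, DESeq2 size factors, 10 counts in every library, no filter, limma-voom (limma 3.58.1), thinning to the smallest library, a prior count of 2 and each experiment left out. Imaging and *Apc* experiments were not analysed here.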

Additional observations from a re-analysis of the deposited data

How the results depend on the processing

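The replicate block decided the number of calls: without it edgeR called 1 gene in place of 166, and 0 of the members, of the related domain genes, of the other matricellular genes and of the binding partner genes, with 1289 genes at an unadjusted p under 0.05 against 2529 with the block. With the block, DESeq2 called 799 genes, limma-voom 621, and edgeR on genes with at least 10 counts in every library 434. The higher share of the calls was 72.3%, 53.4%, 58.8% and 62% in edgeR, DESeq2, limma-voom and that stricter filter. The members called numbered 7 in limma-voom, 6 in DESeq2, 6 under the stricter filter and 3 with DESeq2 size factors, against 4. Related domain genes called numbered 5 in DESeq2. Other matricellular genes called numbered 3 in DESeq2, 2 under the stricter filter and 3 in limma-voom. Binding partner genes called numbered 6, 5 and 5 in those fits. With 1 experiment left out, edgeR called 35 to 555 genes (35 without experiment 1, 555 without experiment 2), 4 to 5 members, 0 to 6 related domain genes, 1 to 2 other matricellular genes and 1 to 7 binding partner genes. *Spon2* was also not called in DESeq2 or with DESeq2 size factors (−0.997), where it fell just short of the 2-fold limit. The only member whose direction reversed was *Spock3*, at −0.015 in limma-voom, −0.073 with thinned counts and −0.77 without experiment 2, against 1.20 without experiment 1. The *Spock2* share difference was −13.3 percentage points when counts were not divided by length, against −16.5. Fewer genes were tested under the stricter filter (11129), and the causes of these shifts, that of the stricter filter included, were not tested. *Spock3*, *Spock2* and *Sparcl1* had the fewest counts of the members, under 100 in at least 1 library, and the part of depth in their spread was not tested beyond the thinning.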
